A study of Mus musculus with 11 samples.

Results

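The cytosolic ribosomal proteins are the protein building blocks of the ribosomes that translate nuclear messenger RNA. They were picked by symbol, as every gene whose symbol is Rpl or Rps followed by a digit, or Rplp0, Rplp1, Rplp2 or Rpsa, without the S6 kinases and without pseudogenes, and only through probe sets annotated to 1 gene. The rule found 35 genes with 49 probe sets, out of 8251 genes named on the array. Of these, 18 genes belong to the small subunit (27 probe sets) and 17 to the large subunit (22 probe sets). A further 39 ribosomal protein probe sets are annotated to several genes and were left out.

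The study hybridised RNA from whole brains of 11 untreated C57BL/6J mice to Affymetrix arrays, 1 array a mouse, to compare mice lacking the nicotinic receptor subunit β4 with wild-type littermates of mutant mice. The receptor is an ion channel opened by acetylcholine. The wild-type group held 4 males and 2 females: wild-type 1 and 2 were males aged 9 and 8 weeks, wild-type 3 a female of 7 weeks, and wild-type 4 (male), 5 (female) and 6 (male) were all 6 weeks old. The group homozygous null for β4 held 2 males of 9 weeks, null 1 and null 2, and 3 females, null 3 of 7 weeks and null 4 and 5 of 8 weeks. The animal numbers of wild-type 4, 5 and 6 begin with the letters LT and those of all other mice with B4, so these letters and an age of 6 weeks cannot be told apart. The null allele is carried by every cell of the animal, and Chrnb4, the gene that it disrupts, is named for no probe set used here, so the genotype labels could not be checked.

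A ribosome joins a small subunit, which holds the messenger RNA and reads its codons, to a large subunit, which forms the peptide bonds. Most of its proteins are present in a single copy, and many of their messenger RNAs begin with a terminal oligopyrimidine tract, a run of C and T letters at the start of the transcript through which mTOR signalling controls their translation. Ribosomal proteins are made in every brain cell, with high demand in neurons and other cells that make much protein.

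RefSeq promoter windows of assembly GRCm38.p6 were matched for 28 of the 35 genes; Rpl7, Rpl8, Rpl32, Rps4l, Rps14, Rps20 and Rps29 have no entry in that table. The windows below run from 15 bases before to 15 bases after the annotated start, 5′ to 3′ on the gene's own strand, and capitals mark the longest run of C and T. They are shown for the 8 genes with a window whose signal differed between null and wild-type males, and for Rps10 and Rpl7a as examples of long runs. Rps28 lies at chr17:33824548-33824577 (minus strand), Rps7 at chr12:28635939-28635968 (minus), Rps18 at chr17:33955651-33955680 (minus), Rps24 at chr14:24490663-24490692 (plus) and Rpl41 at chr10:128549154-128549183 (minus). Rpl22 lies at chr4:152324421-152324450 (plus), Rps3 at chr7:99483695-99483724 (minus), Rpl6 at chr5:121204486-121204515 (plus), Rps10 at chr17:27635230-27635259 (minus) and Rpl7a at chr2:26910792-26910821 (plus).
Rps28: ggtaccgcgtgcggTCTCgcgagagcgaaa
Rps7: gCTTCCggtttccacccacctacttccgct
Rps18: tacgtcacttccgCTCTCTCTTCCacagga
Rps24: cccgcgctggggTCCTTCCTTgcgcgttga
Rpl41: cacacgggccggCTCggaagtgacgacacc
Rpl22: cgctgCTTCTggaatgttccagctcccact
Rps3: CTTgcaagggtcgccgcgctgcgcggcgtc
Rpl6: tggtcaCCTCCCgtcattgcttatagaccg
Rps10: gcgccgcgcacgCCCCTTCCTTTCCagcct
Rpl7a: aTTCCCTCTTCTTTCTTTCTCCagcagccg

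A run of at least 8 C or T letters stood in this window in 11 of the 28 genes (39.3%), against 13.9% of 27025 genes in the table. The longest run was 21 letters in Rpl7a and 13 in Rps10, 11 in Rps18 and 9 in Rps24, but 5 in Rps7, 4 in Rps28 and 3 in Rpl41 and Rps3. The annotated start may lie some bases from the true one, which would move such a run out of the window. The table lists several starts for some genes: a gene was counted if any of its starts held the sequence, for members and all genes alike, and the window shown is that with the longest run. In the whole 300 base window, searched on both strands, CCGGAAG, a core of the sites bound by ETS family factors, was present in 12 of 28 genes (42.9%, against 9.9% of all). AAGATGGC, a core of the YY1 site, was present in 5 of 28 (17.9%, against 3.2%), and TATAAA, the TATA box core, in 4 of 28 (14.3%, against 15.7%). The ends of CCGGAAG and TATAAA can overlap the start of AAGATGGC, and such overlaps were counted under each motif.

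Of the 49 probe sets, 28 were bright enough to be tested, which here means a mean log2 signal over all arrays of at least 4.69 (a linear signal of 25.8). The 28 cover 25 genes, 14 probe sets of 13 small-subunit genes and 14 probe sets of 12 large-subunit genes. The other 21 probe sets were dim, and 10 genes had no tested probe set: Rpl32, Rpl35a, Rpl38, Rpl39, Rpl39l, Rps13, Rps14, Rps15, Rps20 and Rps27l. A dim probe set does not show a scarce message, since 7 genes had bright and dim probe sets side by side. Rps4x, encoded on the X chromosome, was measured by 5 probe sets: 1 had a signal of 2255 to 3239 in the 11 brains, and the other 4 were not tested. Rps28 had 3 probe sets, of which 1 read 10.8 to 58.9 and the others between 2018 and 8843. Levels are therefore not compared between genes.

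The spread between wild-type brains was moderate. The coefficient of variation of a tested probe set over the 6 wild-type brains had a median of 16.3%, against 19.5% over all 7453 tested probe sets. It was lowest for Rps27, a zinc-binding protein of the small subunit, at 6.7% (194.4 ± 13.0, SD, n = 6), and highest for a dim probe set of Rpl22 at 47.9%.

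**Figure D1:**
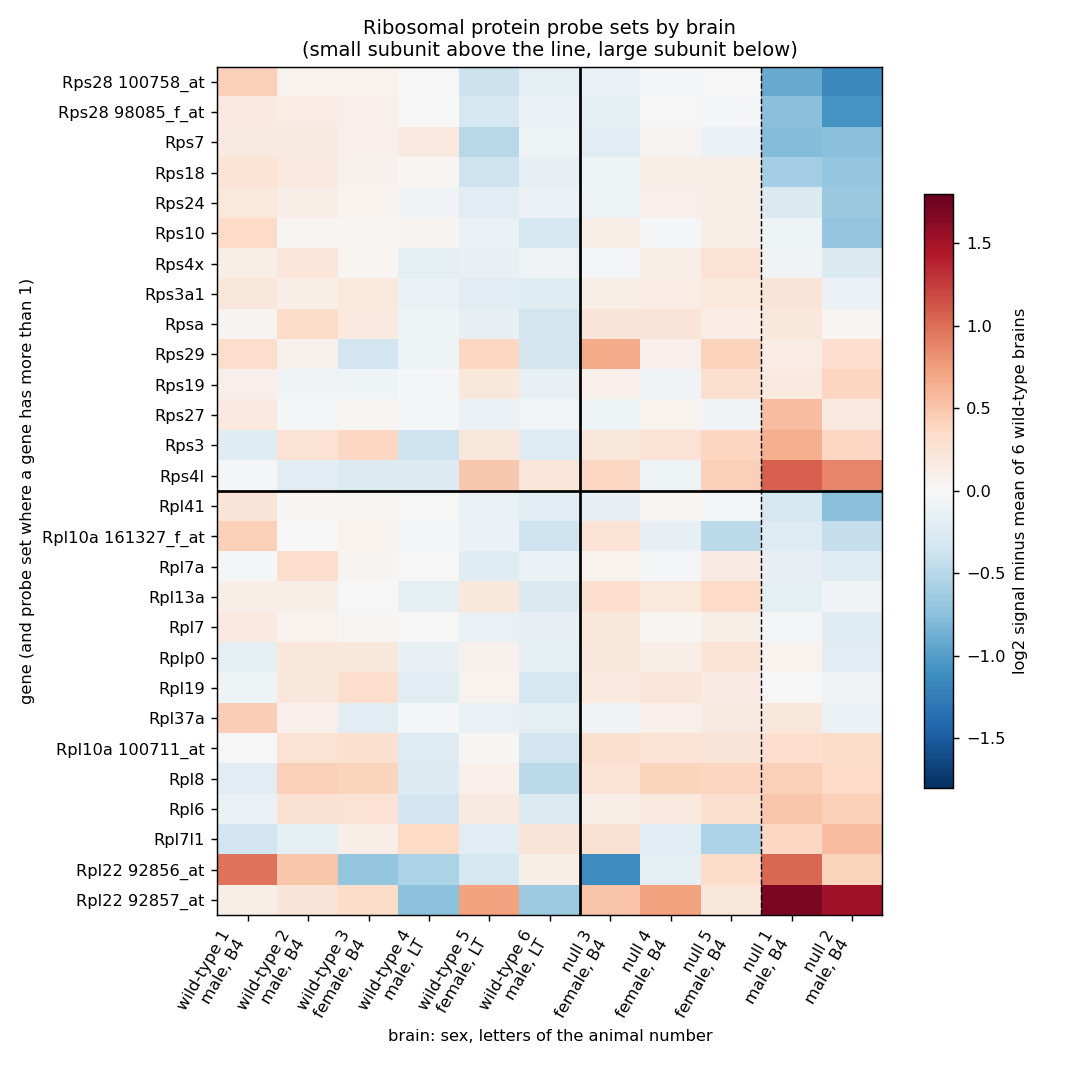
Each row is 1 of the 28 tested probe sets and each column 1 brain, with the sex and the letters of the animal number below it. Colour gives the log2 signal minus the mean log2 signal of the 6 wild-type brains. Rps28, Rps7 and Rps18 are lowest and Rpl22 (92857_at) and Rps4l highest in the male null brains at the right, while the 3 female null brains lie near the wild-type colours.

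The first comparison asked whether ribosomal protein messages differed between β4 null and wild-type brains. None of the 28 probe sets passed the test (limma with sex as covariate, adjusted p under 0.05 over all 7453 tested probe sets), where 2 of 7453 did (0.0268%). At an unadjusted p under 0.05 there were 6 of 28 members (21.4%), 3 with a higher and 3 with a lower signal in null brains, against 23.1% of all tested probe sets (13.4% higher, 9.69% lower). The median difference over the 28 was 0.066 on the log2 scale, against 0.035 over all tested probe sets, and was 0.042 in the small and 0.066 in the large subunit. For 0 members did all 5 null brains lie above or all below the 6 wild-type brains, against 0.59% above and 0.496% below over all. Without wild-type 5, 5 members passed (17.9%, against 11.8% of all tested probe sets): Rpl22 (92857_at), Rps4l, both tested Rps28 probe sets and Rps7.

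Among small-subunit proteins the lowest differences belonged to Rps28, a protein near the exit of the messenger RNA channel. Its probe set 100758_at averaged 3489 ± 1190 over the null brains (SD, n = 5) and 4559 ± 880 over the wild-type brains (SD, n = 6), a log2 difference of -0.53 (SE 0.213, limma adjusted p = 0.168). The probe set 98085_f_at gave 6136 ± 1860 against 7850 ± 925 and a difference of -0.49 (SE 0.179, limma adjusted p = 0.142). Rps7, a protein of the small-subunit body that also takes part in subunit assembly, had 2943 ± 746 in null and 3716 ± 608 in wild-type brains, a difference of -0.40 (SE 0.182, limma adjusted p = 0.208). None of these 3 passed the adjusted threshold. Rps18, a protein of the head of the small subunit, differed by -0.29, the probe set named for Rps24 by -0.21, Rps10 by -0.17 and Rps4x by -0.02. On the positive side stood Rps4l, a gene closely related to Rps4x, at 166.7 ± 51.4 against 112.8 ± 24.5 (log2 difference 0.60, SE 0.212, limma adjusted p = 0.134). Rps3, which lies at the entry of the messenger RNA channel and also has a role in DNA repair, gave 2019 ± 251 against 1580 ± 335 (difference 0.34, SE 0.155, limma adjusted p = 0.208). The remaining small-subunit members lay between 0.10 for Rps3a1 and 0.30 for Rps29, with Rpsa at 0.15, Rps19 at 0.18 and Rps27 at 0.19.

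Among large-subunit proteins the 92857_at probe set of Rpl22, an RNA-binding protein that the ribosome can do without, had the highest difference. It gave 118.7 ± 53.4 in null and 61.15 ± 22.8 in wild-type brains, a log2 difference of 0.96 (SE 0.338, limma adjusted p = 0.132), and did not pass the threshold. A second, dim Rpl22 set, 92856_at, gave 31.22 ± 15.3 against 28.65 ± 13.7 (difference 0.33, SE 0.360, limma adjusted p = 0.596). Rpl8, whose product sits close to the catalytic centre, differed by 0.32 (2606 ± 124 against 2076 ± 525), Rpl6 by 0.29 (1965 ± 228 against 1611 ± 296) and Rpl7l1, a nucleolar relative of Rpl7, by 0.17. Rpl41, the smallest ribosomal protein, had the lowest value at -0.29 (8832 ± 1730 against 10300 ± 1060, limma adjusted p = 0.226). Rplp0, the base of the stalk that recruits elongation factors, differed by 0.025, Rpl7 by 0.001, Rpl19 by 0.028, Rpl13a by 0.043, Rpl37a by 0.089 and Rpl7a by -0.049. The stalk proteins Rplp1 and Rplp2, the S6 kinase substrate Rps6, and Rpl3, Rpl10, Rpl22l1 and Rpl36a were not analysed here.

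The male null brains stood apart from the other 9. Their median signal over all probe sets was 58.3 and 56.3, against 43.6 to 49.75, and the ratio of the 3′ to the 5′ Gapdh control probe sets, a measure of how far labelled RNA reaches towards the 5′ end, was 0.859 and 0.798, against 2.19 to 5.92. The summed signal of the neuron markers (8 of the 10 marker genes are on the array, all with a tested probe set) was 13790.5 and 13478.2 in them and 9944.1 to 12704.8 in wild-type brains; for oligodendrocyte markers (7 of 10 genes, 6 of them tested) it was 10978.3 and 11397.1 against 6573.4 to 9910.4. Choroid plexus markers (4 of 8 genes, 3 tested) summed to 945.5 and 711.2, against 1026.2 to 1790.2 in wild-type brains. Astrocyte (7 of 9 genes, all tested) and microglial markers (9 of 10, 7 tested) summed to 8653.7 and 7529.2 and to 2555.5 and 2222.9, against 6802.5 to 8034.2 and 1849.5 to 2235 in wild-type brains. Erythroid markers (4 of 10 genes, 3 tested) summed to 2440.1 and 2512.6, against 2654.4 to 6879.3. Endothelial markers (7 of 10 genes, all tested) summed to 834.3 and 721.8, against 529.2 to 848.3 in wild-type brains. Such sums follow the brightest probe sets, and within a list the log2 genotype differences went both ways. They ran from -0.505 to 1.45 among Mobp probe sets (oligodendrocytes), and from -0.622 (Tubb3) to 1.976 (Map2) among neuron markers. Choroid plexus markers ran from -0.357 (Ttr) to 1.132 (Folr1). In whole brain, fewer cells of a type and less RNA per cell cannot be told apart. The part of these shifts in the ribosomal protein values was not tested, and the genotype differences are given again below without these 2 brains.

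Without the male null brains, limma called 0 of 28 members and 0 of 7453 probe sets, and at an unadjusted p under 0.05 there were 0 members, against 3.54% of all. The differences then ran from -0.13 (Rpl7l1) to 0.38 (Rps29), with a median of 0.111 against 0.016 over all tested probe sets. Of the 28, 21 were positive, against 53.1% of all. Wild-type 5, 1 of the 2 wild-type females, had an LT number, while all null brains had B4 numbers. As a median over the 28 relative to the wild-type mean, wild-type 5 stood at -0.119 and wild-type 3 at 0.069. The null females stood at 0.093 to 0.158. The part of the letters or age in these differences was not tested. Rps28 moved from -0.53 to 0.11 (100758_at) and from -0.49 to 0.04 (98085_f_at), Rps7 from -0.40 to 0.12, Rps18 from -0.29 to 0.20 and Rpl22 (92857_at) from 0.96 to -0.05. Rps4l kept a positive value of 0.12 and Rps3 came to -0.001. The other small-subunit values were 0.11 for Rps24, 0.12 for Rps10, 0.17 for Rps4x, 0.14 for Rps3a1, 0.18 for Rpsa, 0.03 for Rps19 and 0.01 for Rps27. In the large subunit Rpl8 came to 0.11, Rpl6 to -0.02, Rpl41 to -0.01, Rplp0 to 0.05, Rpl7 to 0.16, Rpl19 to -0.01, Rpl13a to 0.17, Rpl37a to 0.23, Rpl7a to 0.15, the Rpl22 set 92856_at to 0.19 and the Rpl10a sets to 0.09 (100711_at) and -0.11 (161327_f_at). With the log2 Gapdh ratio as a covariate on all 11 brains, limma called 0 members and 0 of all probe sets. At an unadjusted p under 0.05 there were 0 members against 4.66% of all, and the median was 0.116. The Gapdh ratio was 0.798 to 3.58 in null and 3.57 to 5.92 in wild-type brains. Since these ranges barely overlap, the fit separates the ratio poorly from genotype.

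The second comparison split the genotype difference by sex. In males, 10 of 28 members passed the test (35.7%), 4 higher and 6 lower in null brains, against 32.6% of all tested probe sets (17.8% higher, 14.8% lower). Of the 10, 7 were small-subunit and 3 large-subunit probe sets. In females limma called 0 of 28 members and 0 of 7453 probe sets, and 0 members reached an unadjusted p under 0.05, against 4.13% of all. The female differences are the same values as those given above without the male null brains, so they are not a second result. The share of members called in males is thus close to the share of all probe sets.

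The largest male differences among lower members were those of Rps28. In 100758_at the 4 wild-type males had signals of 6044, 4698, 4488 and 3988, the 2 null males 2388 and 2018, the 2 wild-type females 4713 and 3422 and the 3 null females 4145, 4392 and 4501. Both null males lay below the lowest of the other 9 brains, and the female groups overlapped. The log2 difference in males was -1.11 (SE 0.168, limma adjusted p = 0.00038, 2.16-fold lower). In 98085_f_at the wild-type males had 8843, 8536, 7852 and 7257 and the null males 4645 and 3703, with 6336 and 8273 in wild-type and 6876, 7849 and 7609 in null females. This set shows the same order of groups, and its difference in males was -0.97 (SE 0.141, limma adjusted p = 0.000307).

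Rps7 read 4116, 4104, 4137 and 3445 in wild-type males and 2141 and 2174 in null males. In females it read 3901 and 2596 in wild-type and 3211, 3780 and 3409 in null brains. The null males were again below all other brains, while wild-type 5, a female with LT letters, was the next lowest. The difference in males was -0.87 (SE 0.153, limma adjusted p = 0.00107).

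Rps18 read 4253, 4058, 3671 and 3246 in wild-type males and 2356 and 2218 in null males, with 3812 and 2774 in wild-type and 3404, 3878 and 3921 in null females. The male difference was -0.73 (SE 0.148, limma adjusted p = 0.00259), and both null males were below the other 9 brains. The probe set 97696_r_at named for Rps24, a protein of the small-subunit body, read 8013, 7632, 6684 and 6492 in wild-type and 5823 and 4397 in null males (difference -0.50, limma adjusted p = 0.0166). That probe set and the tested Rpl7 set are annotated with the same source sequence, so the name Rps24 is uncertain, and its second probe set was too dim to test. Rpl41 read 12090, 10421, 10313 and 9030 in wild-type males and 8306 and 6105 in null males (difference -0.55, limma adjusted p = 0.0115). Its probe set, 100213_f_at, is of the type whose probes also match other sequences. The Rps28 set 98085_f_at and the Rpl10a set 161327_f_at are of the same type. Probes of the Rps4l set 98149_s_at and the Rpl7 set 97695_s_at may also be shared with related sequences.

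Of the 4 members that were higher in null males, Rpl22 (92857_at) had the largest difference. It read 62.5, 67.1, 34.4 and 36.3 in wild-type males and 185.5 and 165.7 in null males, with 72.1 and 94.5 in wild-type and 82.0, 94.5 and 65.8 in null females. The null males were above every other brain, by 1.87 on the log2 scale over wild-type males (SE 0.296, limma adjusted p = 0.000505, 3.66-fold). The other Rpl22 probe set, 92856_at, read 51.7, 37.2, 17.6 and 28.3 in wild-type and 53.4 and 34.5 in null males, which overlap (difference 0.46, limma adjusted p = 0.521).

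Rps4l read 109.5, 96.6, 93.4 and 128.9 in wild-type males and 233.5 and 203.0 in null males (difference 1.03, SE 0.232, limma adjusted p = 0.00459), with 93.8 and 154.4 in wild-type and 144.0, 103.9 and 148.9 in null females. Rps3 read 1332, 1848, 1201 and 1317 in wild-type and 2431 and 2002 in null males (difference 0.65, limma adjusted p = 0.00866). Null 2 was within the range of the other 9 brains, whose highest value was 2023. Rpl6, a protein of the large-subunit surface, read 1467, 1924, 1255 and 1335 in wild-type and 2253 and 2132 in null males (difference 0.57, limma adjusted p = 0.0132). Over all 28 members, both null males lay above the other 9 brains for 6 (20.7% of all tested probe sets did) and below them for 6 (16.5%). The 6 above were Rpl22 (92857_at), Rps4l, Rpl6, Rps27, Rpl7l1 and the Rpl10a set 100711_at. The 6 below were both Rps28 sets, Rps7, Rps18, Rps24 and Rpl41.

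**Figure D2:**
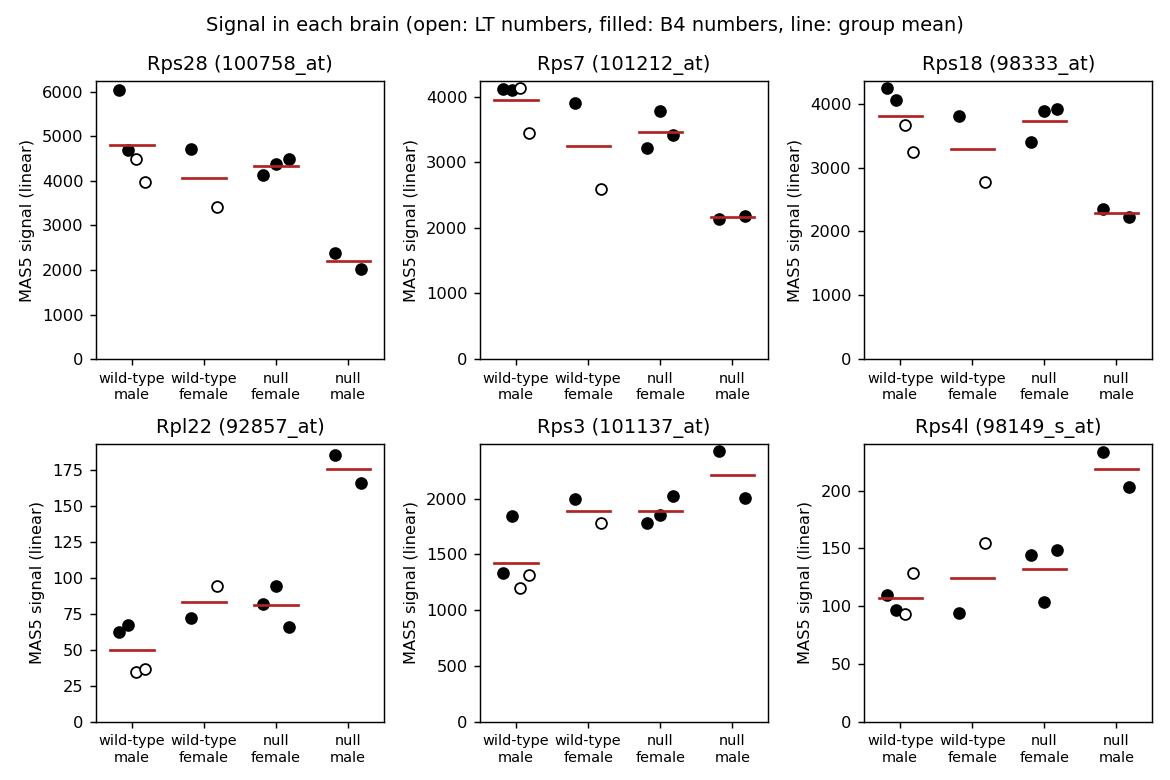
Linear MAS5 signal in each brain for Rps28, Rps7, Rps18, Rpl22, Rps3 and Rps4l, by genotype and sex. Points are single brains, open for LT and filled for B4 numbers, and lines are group means. The 2 null males are the lowest points for Rps28, Rps7 and Rps18 and the highest for Rpl22 and Rps4l, while for Rps3 one of them (2002) lies under the highest of the other brains (2023).

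The test of the difference between the sexes (female genotype difference minus male genotype difference) called 5 of 28 members (17.9%), against 15.9% of all tested probe sets. There were 4 positive calls, all in the small subunit (7.25% of all tested probe sets), and 1 negative call in the large subunit (8.68% of all). The values were 1.23 for Rps28 100758_at (SE 0.244, limma adjusted p = 0.00646), 1.003 for Rps28 98085_f_at (adjusted p = 0.0072), 0.99 for Rps7 (adjusted p = 0.0113), 0.93 for Rps18 (adjusted p = 0.0129) and -1.92 for Rpl22 92857_at (SE 0.430, adjusted p = 0.0109). Rps4l at -0.92 (adjusted p = 0.082), Rps3 at -0.65 (adjusted p = 0.0793), Rps24 at 0.61 (adjusted p = 0.0618), Rpl6 at -0.60 (adjusted p = 0.0899) and Rpl41 at 0.54 (adjusted p = 0.0996) were not called. The median over members was 0.116 against -0.019 over all.

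These 5 calls rest on 2 null males and 2 wild-type females. With the Gapdh ratio as covariate limma called 0 members and 0 of all probe sets, and 0 members reached an unadjusted p under 0.05, against 8.84% of all. The Rps28 100758_at value was then 0.98 (SE 0.577 against 0.244 without the covariate, limma adjusted p = 0.618). For Rpl22 92857_at it was -0.67 (SE 0.932 against 0.430). The lowest ratios were those of the 2 null males, so this fit separates the ratio poorly from the interaction. Without wild-type 5 the count was 2 (6.7% of all probe sets were called), with Rpl22, Rps7 and Rps18 lost. Without wild-type 2 it was 8 (18.9% of all), and without null 2 Rps18 was lost (adjusted p = 0.0629). Over B4 numbers alone 4 members were called, against 8.64% of all, and Rpl22 had an adjusted p of 0.0509.

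**Figure D3:**
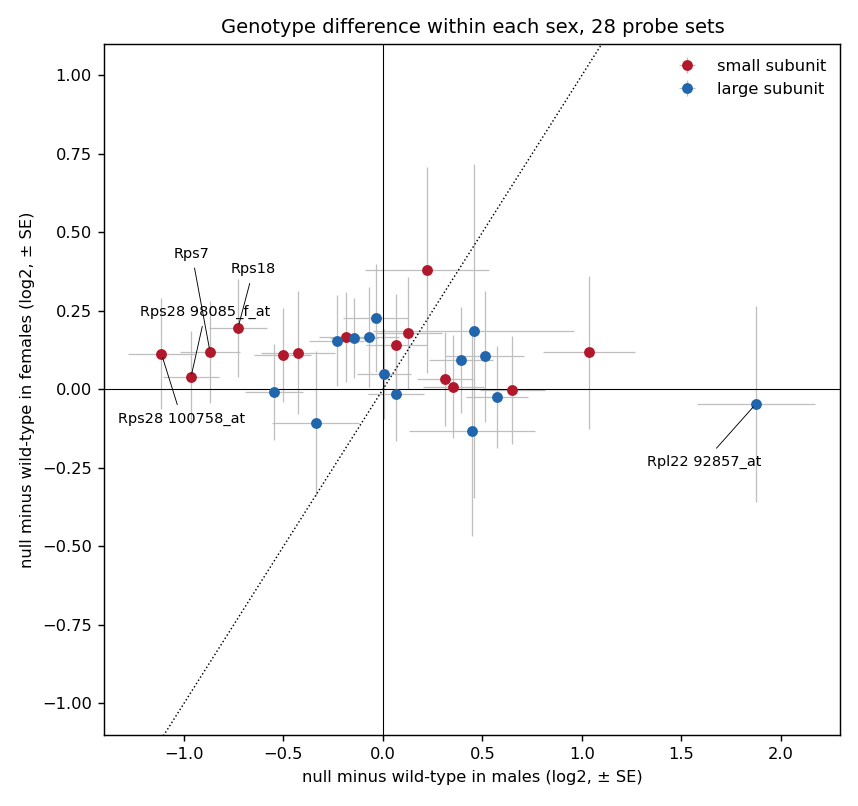
Log2 difference of null from wild-type brains in males (horizontal) and in females (vertical) for the 28 tested probe sets, with standard errors. The dotted line marks equal differences, and the named points are those whose difference between the sexes passed the adjusted threshold. Values run from -1.11 to 1.87 in males and from -0.13 to 0.38 in females.

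The third comparison was between the sexes, with genotype as covariate. limma called 0 of 28 members and 0 of 7453 probe sets (0%), and at an unadjusted p under 0.05 there were 3 members (10.7%) against 12.4% of all. Rpl13a, a protein that can leave the ribosome to silence inflammatory messages, read 336.3 ± 29.1 in females (SD, n = 5) and 276.3 ± 30.4 in males (SD, n = 6), a log2 difference of 0.27 (limma adjusted p = 0.386). Rpl19, a protein at the bridge between the subunits, read 2918 ± 187 and 2454 ± 310 (difference 0.25, limma adjusted p = 0.4). Rplp0 was at 2627 ± 121 and 2233 ± 271 (difference 0.24, limma adjusted p = 0.407). The Rpl22 set 92856_at lay the other way, 21.06 ± 7.97 in females and 37.12 ± 13.7 in males (difference -0.89, limma adjusted p = 0.358). The Rps28 set 98085_f_at gave 0.31 (limma adjusted p = 0.49), and -0.16 without the male null brains. The median sex difference was 0.093, against -0.013 over all tested probe sets.

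Within the wild-type group, the 3 brains with LT numbers, all 6 weeks old, were set against the 3 with B4 numbers, aged 7 to 9 weeks. This split was looked at after the values had been seen, and 0 members passed the adjusted test. For 10 of 28 members (35.7%) every LT brain lay below every B4 brain, against 9.16% of all tested probe sets, and for 0 members did every LT brain lie above, against 9.24% of all. The 10 were both tested Rps28 sets, Rps18, Rps24, Rps3a1, Rps4x, Rpsa, Rpl7, Rpl41 and the Rpl10a set 161327_f_at. The median LT minus B4 difference was -0.26, alike in the small (-0.26) and large (-0.25) subunit, against -0.029 over all tested probe sets. Of the 28 differences 25 were negative and 3 positive (10.7%), where 46.1% of all tested probe sets had a positive one.

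Rps3a1, a small-subunit protein that borders the messenger RNA exit, read 2683, 2554 and 2513 in LT and 3350, 3170 and 3337 in B4 wild-type brains. They differed by -0.35 on the log2 scale (SE 0.102, limma adjusted p = 0.15). Rps4x read 2416, 2453 and 2570 against 2912, 3141 and 2765 (difference -0.24, limma adjusted p = 0.326). Rpsa, which is also known as a laminin receptor, read 565.9, 542.2 and 477.8 against 621.2, 749.8 and 677.6 (difference -0.37, limma adjusted p = 0.277). The LT values were lower in each of these 3 genes with no overlap. Rpl7, a large-subunit protein, read 2510, 2305 and 2274 against 2842, 2622 and 2556 (difference -0.18, limma adjusted p = 0.496).

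In that test, limma over the 6 wild-type brains with sex as covariate called 0 members and 65 of all probe sets (0.872%). At an unadjusted p under 0.05 there were 10 members, all lower in LT brains (35.7%), against 5.85% of all probe sets lower at that level. That count was 5 (17.9%, against 6.12% of all) under quantile normalization and 12 (42.9%, against 5.98% of all) under centring on each array's median. The member median was -0.18 and -0.29 in those fits, where the shift of all probe sets was -0.042 and -0.058. The Gapdh ratio of the LT brains was 5.92, 3.81 and 3.57, against 4.35, 3.87 and 3.91 in the B4 wild-type brains, so those ranges overlap; age was not tested apart from the letters. Rps4l (0.30), Rpl7l1 (0.27) and Rps19 (0.03) were the 3 members with a positive difference.

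Because all null mice had B4 numbers, the genotype difference was also taken over B4 brains alone. limma called 0 of 28 members, against 0.349% of all, and 8 members had an unadjusted p under 0.05 (28.6%, against 24.7% of all). The median was -0.042, against 0.066 over all 11 brains. Rps28 100758_at differed by -0.78 and Rps7 by -0.61, Rps4l by 0.82 and Rpl22 92857_at by 0.88, with both null males in the null group. Rps3 differed by 0.245 and Rpl6 by 0.187, against 0.342 and 0.289 over all 11 brains.

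As a median over the 28 probe sets, each relative to its wild-type mean, the family stood at 0.145, 0.128 and 0.069 in wild-type 1, 2 and 3 and at -0.074, -0.119 and -0.179 in wild-type 4, 5 and 6. The female null brains stood at 0.107, 0.093 and 0.158, from within to just above the range of the B4 wild-type brains, and the male null brains at 0.099 and -0.083. The SD of this median between brains within a genotype was 0.119, which includes the gap between LT and B4 wild-type brains. It is a spread of single brains and not a standard error of the genotype median of 0.066, which was not computed.

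**Figure D4:**
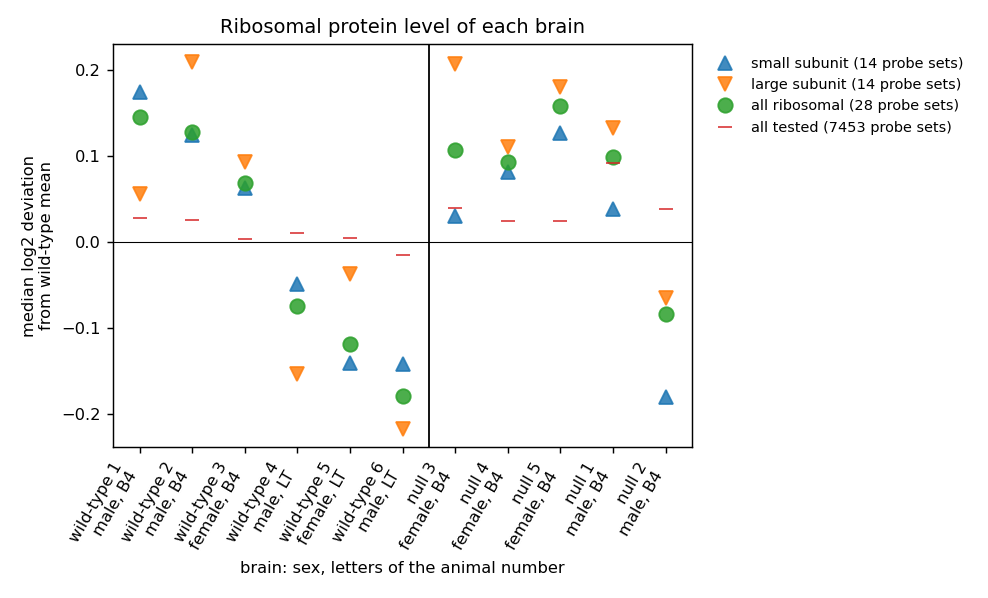
Median log2 deviation from the wild-type mean over the 28 ribosomal protein probe sets, over each subunit and over all 7453 tested probe sets, for each brain. Wild-type 4, 5 and 6, the brains with LT numbers, lie at -0.074 to -0.179, and wild-type 1 to 3 at 0.069 to 0.145, while the median of all tested probe sets lies between -0.015 and 0.092 in every brain.

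Of the genes, 3 had more than 1 tested probe set, whose values can be compared. Over the 9 brains other than the male null ones, the Rps28 sets had Pearson r = 0.91 (exact permutation p = 0.000333, adjusted over 3 pairs p = 0.000999) and Spearman rho = 0.92 (exact permutation p = 0.00131). Without the 2 brains farthest from the median r was 0.88, and over the 6 B4 brains it was 0.81. The Rpl10a sets gave r = 0.20 (exact permutation p = 0.605) and rho = 0.37 (exact permutation p = 0.336), and their genotype differences had opposite signs, 0.25 for 100711_at and -0.23 for 161327_f_at. The Rpl22 sets gave r = -0.13 (exact permutation p = 0.736) and rho = -0.33 (exact permutation p = 0.389). Without the 2 brains farthest from the median r was -0.29 for Rpl10a and 0.03 for Rpl22. Over the 6 B4 brains it was -0.47 for Rpl10a and -0.64 for Rpl22. Statements on Rpl10a and Rpl22 thus hold for the named probe set.

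Paralog pairs could be set side by side only in part. Rps27 read 194.4 ± 13.0 in wild-type and 215.8 ± 42.2 in null brains, and its relative Rps27l was too dim to test, as were Rpl39 and its relative Rpl39l. Rpl7 differed between genotypes by 0.001 and Rpl7l1 by 0.17 (limma adjusted p = 0.996 and 0.687), and Rps4x by -0.02 and Rps4l by 0.60 (limma adjusted p = 0.942 and 0.134).

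Other parts of the translation machinery were described from lists of genes written with earlier results of these data known. For genotype, limma called 0 probe sets in each of the 6 lists. Mitochondrial ribosomal proteins (61 tested probe sets) had a median genotype difference of 0.060, with 12 at an unadjusted p under 0.05, and ran from Mrps25 at -0.71 to Mrpl11 at 1.06. Initiation factors (36) had a median of 0.167 with 9, from Eif2s2 at -0.71 to Eif6 at 0.92. Elongation and release factors (12) had a median of 0.059 with 4, from Eef1a2 at -0.54 to Eef2 at 1.05. Other messages with a terminal oligopyrimidine tract (18) had a median of 0.166 with 8, from Ybx1 at -0.60 to Eef2. This list shares the probe sets of Eef1a1, Eef1a2, Eef1b2, Eef1d and Eef2 with the elongation and release factors, so the lists are not independent. Ribosome assembly factors (47) had a median of 0.15 with 10, from Gar1 at -0.79 to Rrp1 at 1.55, and S6 kinases with the upstream mTOR pathway (13) a median of 0.044 with 2, from Rps6kb2 at -0.68 to Mlst8 at 0.59. Over all tested probe sets the median was 0.035 and 23.1% had an unadjusted p under 0.05. Without the male null brains Mrps25 came to 0.236, Mrpl11 to -0.107, Eif2s2 to -0.373, Eif6 to -0.158, Eef1a2 to -0.301, Eef2 to 0.105, Ybx1 to -0.182, Gar1 to -0.142, Rrp1 to 0.126, Rps6kb2 to -0.678 and Mlst8 to 0.251.

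In the test of the genotype difference between the sexes, 16 of 61 mitochondrial ribosomal protein probe sets were called, 10 positive and 6 negative, against the 15.9% of all tested probe sets. The other 5 lists had 5 of 36, 2 of 12, 4 of 18, 6 of 47 and 1 of 13 called. Eef1a1 and Eef2 were counted in both the elongation list and the list of other messages with a pyrimidine tract. LT wild-type brains lay below B4 brains with no overlap for 5 of 61 mitochondrial ribosomal protein probe sets (8.2%), against 9.16% of all tested probe sets, and for 16.7% of initiation factors, 8.33% of elongation factors, 16.7% of the other messages with a pyrimidine tract, 19.1% of assembly factors and 15.4% of the S6 kinase list, beside 35.7% of the cytosolic ribosomal proteins. The difference between these shares was not tested.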

How the data were processed

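Values were linear intensities per probe set, made by the authors with MAS5 per the submitters' processing notes; the version is not given in the sources used here. The deposited intensities had been scaled to a trimmed mean of 150.1 on every array. The number of arrays limits the precision. Intensities were floored at the 10th percentile (3.1) and log2 taken; of 12422 probe sets that are not controls, 7453 with a mean log2 at or above the 40th percentile (4.69) were tested. Of these 12422, 10833 are annotated to 1 gene, 396 to several and 1193 to none, and 10817 were matched to GRCm38.p6 symbols. limma 3.58.1 in R 4.3.3 (lmFit, eBayes with trend, Benjamini-Hochberg over all tested) gave null minus wild-type, female minus male and their interaction. Nothing says that brains came from separate litters; p-values measure the spread between these mice. The members, the gene lists and the naming rule (the 12 largest differences each way, although in the end all 28 tested members are given for genotype, the 5 lowest p for sex and interaction, all calls, paralogs, stalk proteins) were chosen with earlier results of these data known. Scripts were tested on simulated data. Alternatives were other scalings, floors, filters, covariates, B4 numbers only, and leaving out brains.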

Additional observations from a re-analysis of the deposited data

Results flagged for a closer look

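Rps10, a protein of the small-subunit head, had 1 brain far from the rest of its group: null 2, a male, read 1422, while the other 4 null brains read 2193 to 2512. Dixon's test was made on 56 groups (28 probe sets in each genotype) and found this 1; chance alone picks about 1 group in 20. Without null 2 the Rps10 genotype difference was 0.024, against -0.17 with it.

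For 5 probe sets the genotype difference in females differed from that in males (limma interaction, adjusted p under 0.05). The values, females minus males on the log2 scale, were 1.226 for Rps28 100758_at, 1.003 for Rps28 98085_f_at, 0.989 for Rps7, 0.925 for Rps18 and -1.921 for Rpl22 92857_at. The adjusted p over the alternatives ran from 0.000791 to 0.618 for Rps28 100758_at and from 0.0046 to 0.821 for Rpl22; in each of the 5 the highest p came with the Gapdh ratio as covariate. The male null brains had Gapdh ratios of 0.859 and 0.798, and the part of that in these values was not tested beyond that covariate. These were the lowest ratios of all brains, so the fit with that covariate separates the ratio poorly from the interaction.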

How the results depend on the processing

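No paired analysis was possible because the replicate numbers only name the mice in accession order. The genotype count stayed at 0 under every alternative except leaving out wild-type 5 (leave-one-out range 0 to 5, the 5 beside 11.8% of all), and the sex count at 0 under all of them. The interaction count of 5 went to 0 with the Gapdh ratio as covariate (0% of all tested probe sets) and to 8 with the number letters as block (21.2% of all, against 15.9% in the main comparison); its leave-one-out range was 2 to 8, with 6.19% to 18.9% of all called. The genotype median of 0.066 became -0.115 with centring on array medians (all probe sets -0.146). With age as covariate it was -0.081 (all probe sets 0.029). The sex median of 0.093 (all probe sets -0.013) became 0.277 with centring, where all probe sets also moved up, to 0.172. It was -0.037 without the male null brains (all probe sets -0.016).

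Genotype differences of the 28 tested members changed sign as follows; no sign change involved a value past the threshold. With the Gapdh ratio as covariate they were Rpl22 92857_at -0.416, Rps3 -0.102, Rpl6 -0.12, Rps27 -0.031, Rpl7l1 -0.2, Rpl19 -0.047, Rps28 0.267 (100758_at) and 0.145 (98085_f_at), Rps7 0.233, Rpl41 0.072, Rps18 0.309, Rps24 0.174, Rps10 0.265, Rpl7a 0.22 and Rps4x 0.191. Without the male null brains they were Rpl22 92857_at -0.047, Rps3 -0.001, Rpl6 -0.024, Rpl7l1 -0.132, Rpl19 -0.014, Rps28 0.113 and 0.038, Rps7 0.12, Rps18 0.197, Rps24 0.109, Rps10 0.117, Rpl7a 0.155 and Rps4x 0.166. Quantile normalization gave Rpl7l1 -0.008, Rpl41 0.025, Rpl7a 0.071 and Rps4x 0.154; no covariate gave Rps4x 0.006. Centring gave Rps19 -0.001, Rpl7l1 -0.007, Rpsa -0.029, Rps3a1 -0.078, Rpl37a -0.092, Rpl13a -0.138, Rpl19 -0.153, Rplp0 -0.156 and Rpl7 -0.18. For Rpsa, Rps3a1, Rpl37a, Rpl13a, Rpl19, Rplp0 and Rpl7 in turn, age gave -0.021, -0.09, -0.107, -0.069, -0.121, -0.025 and -0.073, the letters block -0.033, -0.071, -0.02, -0.033, -0.121, -0.053 and -0.088, and B4 numbers only -0.032, -0.077, -0.011, -0.019, -0.114, -0.053 and -0.1. Age also gave Rpl22 92856_at -0.287. Leave-one-out ranges crossed 0 for Rps10 (-0.255 to 0.024), Rpl7a (-0.142 to 0.017), Rps4x (-0.089 to 0.066), Rpl13a (-0.019 to 0.096), Rpl19 (-0.011 to 0.082), Rplp0 (-0.022 to 0.084) and Rpl7 (-0.061 to 0.077). Of the interaction values that were not called, Rps24, Rps3, Rps4l, Rpl6 and Rpl41 each passed under some alternatives, 15 fits in all, with no change of sign. The sex difference of Rps28 98085_f_at became -0.003 with the Gapdh ratio and -0.162 without the male null brains. The cause of these changes was not tested. Where a fit left 1 female wild-type brain, that brain was assumed to vary like the others.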
